A study of Mus musculus with 104 samples.

Results

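Muscle stem cells of old mice were compared between a calorie restricted and a control diet, using every array of the series whose title does not mark an adult animal. These were 50 arrays, 26 from calorie restriction (CR) and 24 from the control diet, and the remaining arrays of the series, 32 CR and 22 control, came from adult mice. All the mice carried a Per1-Venus reporter as a BAC transgene on a C57B6/J background, so both diets share the transgene. The old mice were 55 to 69 weeks of age when a 3-week adaptation started, with a cut of 10% a week for the CR arm, and they then spent 25 weeks on the diet, with control food available without limit or 30% less food under CR. They were 83 to 97 weeks old at collection. The adult mice started at 19 to 29 weeks of age, and those under CR were 47 to 57 weeks old at collection. All adult control arrays carry an age tag of 83 to 97 weeks, against their titles, which were followed. Collection followed the light cycle at 6 hours, from T0 (zeitgeber time 0, when lights come on) every 4 h through T20. On a given day 1 mouse of each diet was killed, all for the same hour, and the day is not tied to an array in the labels. At each time there were 4 control arrays and 4 CR arrays, or 5 at T0 and at T12. The gate used to sort the cells is not known here. RNA of skeletal muscle stem cells was amplified and hybridised to expression arrays, and the design asks how the diet changes the level and the daily rhythm of gene expression in old cells.

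Muscle stem cells, also called satellite cells, lie quiescent under the basal lamina of the muscle fibre and are activated when the muscle is injured. Like most cells they hold a circadian clock, a feedback loop in which Arntl (Bmal1) with Clock drives its own repressors and the output factors Dbp, Tef and Hlf, while Nr1d2 (Rev-erb beta) represses Arntl through ROR elements. A level and a rhythm can change independently: a diet can move a gene's mean over the day, the height of its daily wave, or the hour of its peak.

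The array values are on a log2 scale, and a fold is given beside each difference where it helps. Levels are day means of a 24 h cosine curve fitted per arm, and a difference is CR minus control with its standard error (SE), tested by limma. Array medians ran from 4.81 to 5.00, no 2 arrays were identical, and aged arrays of the same diet and time correlated at 0.945 to 0.981. The muscle stem cell markers were bright in both diets: Gpx3 and Sdc4 each averaged over 12 on the log2 scale, and of 21 such markers above the filter on dim probe sets none was called for a level difference, with a median of -0.0065. Cxcr4 was the only listed muscle stem cell marker below that filter. Markers of other cells were also measured, and the values of some of these lists are given beside the gene groups below. The titles call the arrays biological replicates. The p-values test differences against the spread between arrays, which was estimated over the whole series, adult arrays included.

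Of 11853 genes tested, 272 differed in level between the diets at a 5% false discovery rate (2.29%), 143 higher under CR (1.21%) and 129 lower (1.09%). The differences were small. The median fold was 1.24 with a range of 1.09 to 1.75, and 14 genes passed 1.5-fold, 5 of them higher and 9 lower. The diet difference had the same sign at all 6 times in 165 of the 272 genes, at 5 times in 98 and at 4 or fewer in 9. The median difference over all genes was -0.0016. The count moved over 1.5 times in 2 alternatives, to 145 genes without T20 and to 160 with a replicate block.

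Among the genes higher under CR, the widest difference was that of Rtl3, a retrotransposon Gag-like gene. Its control values had a lowest of 6.96, a median of 7.71 and a highest of 8.64, and its CR values 6.88, 8.37 and 9.39. The arms overlapped, but 24 of 26 CR arrays lay above the control median and 11 above every control array. The difference was 0.74 ± 0.14 (SE), or 1.67-fold, with an adjusted p of 0.00078. Milr1, an inhibitory receptor of mast cells and other myeloid cells, ran from 5.52 through a median of 6.67 to 7.70 in the control and from 6.31 through 7.27 to 8.58 under CR. Here too 24 CR arrays exceeded the control median, and the difference was 0.70 ± 0.15 with a limma adjusted p of 0.0030. Lag3, an inhibitory receptor best known on T cells, had a control median of 6.68 between 6.04 and 8.19, and a CR median of 7.39 between 6.61 and 8.00. Only 1 CR array fell to or below the control median, although the highest of all 50 was a control array. Lag3 differed by 0.56 ± 0.11 (adjusted p 0.000762).

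Ntrk3, the receptor of neurotrophin-3, was higher by 0.59 ± 0.17 and Mrgprh, an orphan G protein-coupled receptor, by 0.67 ± 0.19, with adjusted p of 0.0399 and 0.0382. Vipr2, a receptor of vasoactive intestinal peptide, was higher by 0.58 ± 0.15, and Ager, the receptor for advanced glycation end products, by 0.52 ± 0.10. In both genes the arms overlapped, and 20 CR arrays lay above the control median for Vipr2 and 25 for Ager. The glutathione transferase Gstt3 was higher by 0.56 ± 0.14, and none of its 26 CR arrays, the lowest at 7.83, reached down to the control minimum of 6.40. Mms19, a part of the machinery that delivers iron-sulfur clusters to DNA repair enzymes, had every CR array above the control median and differed by 0.51 ± 0.10 (adjusted p 0.000762). Atcay, which encodes the neuronal protein caytaxin, differed by 0.58 ± 0.12, the small GTPase gene Rasl11a by 0.56 ± 0.13 and the beta-galactosidase-like Glb1l2 by 0.59 ± 0.13. With the mean of a gene's probe sets in place of the brightest, Ntrk3 fell to 0.10 (adjusted p 0.528) and Mms19 to 0.21 (adjusted p 0.0693), while Ager, at 0.32, and Atcay, at 0.35, kept their calls. Mrgprh, Vipr2, Glb1l2 and Ager also lost their calls under at least 1 of the settings, Ager with the replicate block at an adjusted p of 0.0504, and single omissions ended the calls of Ntrk3 (19 of 50) and Mrgprh (17).

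The genes lower under CR were led by the chemokine Cxcl13, which attracts B cells. Its control arrays had a lowest value of 6.13, a median of 7.22 and a highest of 9.28, against 5.43, 6.52 and 7.40 under CR. All but 1 of the CR arrays lay below the control median, and 4 below every control array. The difference was -0.81 ± 0.15, a 1.75-fold lower level (adjusted p 0.000762). Thy1, a surface glycoprotein of fibroblasts, neurons and T cells, had control values of 6.26, 7.63 and 8.94 and CR values of 5.84, 6.71 and 8.52 at the lowest, median and highest. The arms overlapped widely, with 8 CR arrays below all controls, and the difference was -0.80 ± 0.15 (limma adjusted p 0.000762). Dio2, the deiodinase that converts thyroxine to its active form, separated the arms more clearly. No control array was below the CR median, 14 of 26 CR arrays were below the lowest control array, and the difference was -0.57 ± 0.11 (adjusted p 0.000807).

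Slc39a14 (Zip14), an importer of zinc, iron and manganese, had the smallest adjusted p of all level differences named here, 0.000347. Its control arrays ran from 8.95 through a median of 9.73 to 10.3, its CR arrays from 8.11 through 9.11 to 9.89, and 9 CR arrays lay below every control array. The difference was -0.57 ± 0.10. The protease inhibitor Serpina3n differed by -0.75 ± 0.14, the death-domain receptor Tnfrsf21 by -0.71 ± 0.14 and the interferon-inducible chaperone Rtp4 by -0.60 ± 0.12. For Tnfrsf21 no CR array exceeded the control median. Further down, Igsf10 differed by -0.71 ± 0.18, the endothelial early response gene Apold1 by -0.67 ± 0.19, Casq2, a calcium-binding protein of the sarcoplasmic reticulum, by -0.53 ± 0.11, the neural adhesion molecule L1cam by -0.51 ± 0.13 and the potassium channel Kcnk1 by -0.51 ± 0.12. L1cam lost its call under 4 settings, among them the mean of its probe sets (-0.23, adjusted p 0.111). Rtp4 lost its call without T20 (limma adjusted p 0.0656) and Kcnk1 with ranks in place of log2 values (0.0652). Igsf10 lost its call with ranks (0.0515) and with a fibroadipogenic progenitor marker score as a covariate (0.0566). Apold1 lost its call under 9 of 16 settings and 23 of 50 single omissions, with differences between -0.69 and -0.54 in the settings.

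**Figure D1:**
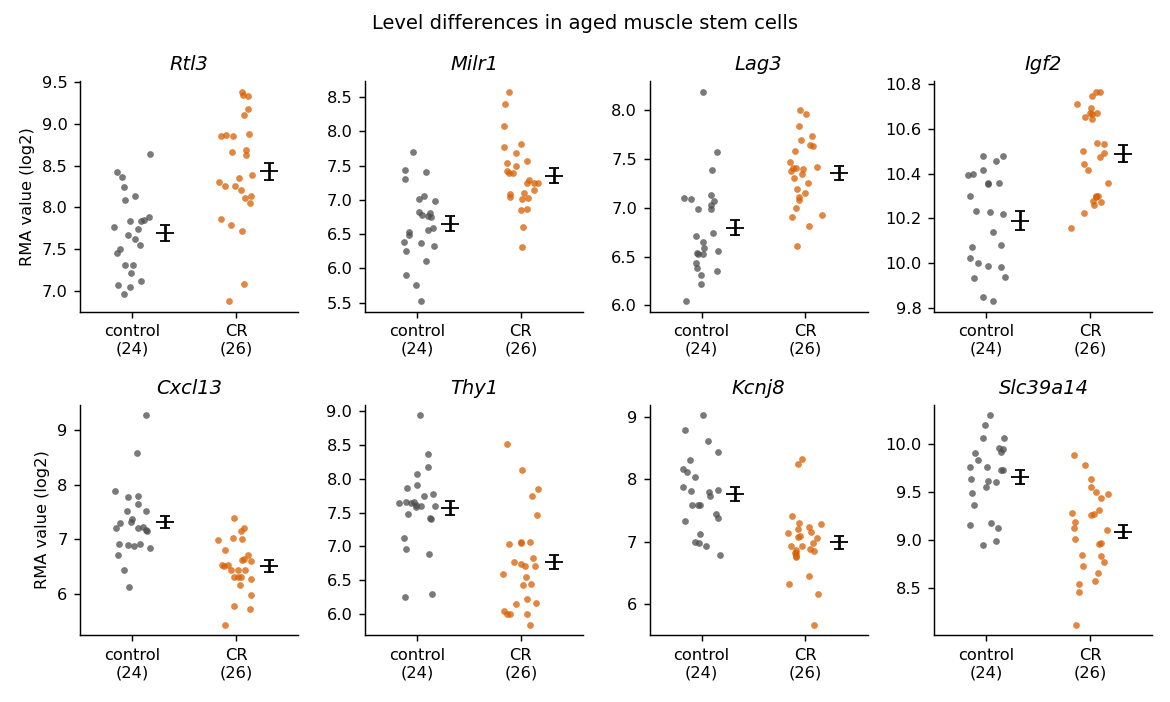
Values of 8 genes in each of the 24 control and 26 CR arrays of aged cells (points, RMA values on the log2 scale), with the fitted day mean ± SE of each arm (black bar). The upper row holds genes higher under CR and the lower row genes lower under CR; the arms overlap in all 8, and for Igf2 14 CR arrays lie above every control array.

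Some chaperones of the cytosol were lower under CR. Of 12 measured heat shock genes 4 fell and none rose, against 1.09% of all genes lower, and the list's median difference was -0.16 against -0.0016 over all genes. The 4 were the small heat shock protein Hspb1, the Hsp70 co-chaperone Bag3, the lens and muscle chaperone Cryab and the nucleotide exchange factor Hsph1. Bag3 ran from 7.73 through a median of 8.28 to 9.29 in the control and from 7.48 through 8.02 to 8.32 under CR, a difference of -0.35 ± 0.09 (adjusted p 0.0211). Only 2 CR arrays were above its control median. Hspb1, one of the brightest of the list, had medians of 11.4 and 11.2 and differed by -0.24 ± 0.06, with 23 of 26 CR arrays below the control median (limma adjusted p 0.0201). Hsph1 differed by -0.34 ± 0.10 (adjusted p 0.0376) and Cryab by -0.27 ± 0.07 (adjusted p 0.0289). Each of the 4 lost its call under 1 to 3 of 16 settings: Hspb1 and Hsph1 without T20, Bag3 with array weights or a fibroadipogenic progenitor score, and Cryab with the replicate block, a Schwann cell score or ranks. Hsph1 also lost it in 13 of 50 single omissions and Cryab in 2. Hspa8, the main constitutive cytosolic Hsp70, differed by -0.02 and Hsp90aa1, the inducible Hsp90, by 0.03, neither called.

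The RefSeq promoter windows of Hspb1 and Bag3 are shown because both hold a short core of the heat shock factor motif. The windows are 300 bases long and lie on GRCm38.p6 at chr5:135887669-135887968 for Hspb1 and chr7:128523333-128523632 for Bag3, both on the plus strand. Capitals mark the core GAANNTTC, which reads the same on both strands and was chosen as a motif after the level differences had been seen.
Hspb1: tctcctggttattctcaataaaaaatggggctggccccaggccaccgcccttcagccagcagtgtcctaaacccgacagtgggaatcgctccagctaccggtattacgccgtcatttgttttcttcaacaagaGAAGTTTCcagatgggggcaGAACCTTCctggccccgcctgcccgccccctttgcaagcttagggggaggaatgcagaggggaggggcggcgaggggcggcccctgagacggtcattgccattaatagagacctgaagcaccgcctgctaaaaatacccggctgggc
Bag3: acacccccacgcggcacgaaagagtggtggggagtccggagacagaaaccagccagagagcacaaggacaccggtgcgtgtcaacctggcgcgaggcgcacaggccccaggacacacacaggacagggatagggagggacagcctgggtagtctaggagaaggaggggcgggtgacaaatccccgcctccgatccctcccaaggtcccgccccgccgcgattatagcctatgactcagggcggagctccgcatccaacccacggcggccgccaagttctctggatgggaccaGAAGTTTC
Of the 4 lower genes 3 had a window, and all 3 (Bag3, Hspb1 and Hsph1) held the core. It stood in 7 of the 9 heat shock genes with a window, in 7.15% of the 9543 tested genes with a window and in 7.86% of all 32851 windows. The longer heat shock element, the core preceded by TTC and 2 free bases, stood in neither printed window, in 2 of the 9 (Hspe1 and Hsph1), in 1 of the 3 lower genes (Hsph1) and in 0.608% of tested genes with a window. Heat shock genes that were not called, such as Dnaja1 and Hspe1, held the short core too. A match is a description of letters, not of binding.

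A few genes of protein folding and export in the endoplasmic reticulum were lower as well. In the unfolded protein response list 2 of 20 members fell, against 1.09% of all genes, and none rose. A negative difference was found in 15, beside 6016 of all 11853 genes, and the median was -0.12. Dnajc3 (p58IPK), an inhibitor of the stress kinase PERK and a chaperone of the reticulum, differed by -0.35 ± 0.08, with 12 of 26 CR arrays below every control array (adjusted p 0.00565). The secreted stress protein Manf differed by -0.25 ± 0.07 (adjusted p 0.0198), and lost its call without T20, with the Schwann cell score and with the replicate block (adjusted p 0.0873). Outside the list, and chosen after their values were seen, other secretory pathway genes were called lower. Kdelr3, which retrieves resident proteins from the Golgi, differed by -0.40 ± 0.11, the oligosaccharyltransferase subunit Rpn1 by -0.32 ± 0.08, the Hsp70 relative Hspa13 by -0.32 ± 0.09, the cargo receptor Tmed5 by -0.30 ± 0.07, the collagen lysyl hydroxylase Plod1 by -0.39 ± 0.11 and calumenin (Calu) by -0.17 ± 0.05. Hspa5 (BiP), the main chaperone of the reticulum, differed by -0.04 and Calr by 0.04, neither called. At T0, Manf differed by -0.49 and the list's median was -0.23, beside a median of -0.042 over all genes at that time.

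Of 31 genes in the extracellular matrix list 5 fell, against 1.09% of all genes, and none rose. The list's median difference was -0.13, beside -0.0016 over all genes. Outside the list, and named here after their values were seen, the laminin chains Lamc3 (0.47) and Lama3 (0.30) were called higher, with adjusted p of 0.0202 and 0.0183. Sparc, a collagen-binding matricellular protein, had control values of 10.7, 11.2 and 11.5 and CR values of 10.7, 10.9 and 11.3 at the lowest, median and highest. All but 1 of its CR arrays were below the control median, and it differed by -0.24 ± 0.05 (adjusted p 0.000968). Nid1 (nidogen), which links laminin to collagen in the basal lamina, differed by -0.41 ± 0.10, with 10 CR arrays below every control array (limma adjusted p 0.0115). Tnc (tenascin C), a matrix protein of injured muscle, differed by -0.69 ± 0.18, Col5a3 by -0.22 ± 0.06 and Col3a1, a main fibrillar collagen, by -0.28 ± 0.08, with adjusted p of 0.0166, 0.0353 and 0.0404. Tnc and Col5a3 each lost their calls under 5 settings, the replicate block and the fit of the aged arrays alone among them, and Col5a3 in 13 of 50 single omissions. Large differences that did not pass the test were -0.53 for Postn and -0.48 for Col6a3, while Col15a1 stood at 0.31.

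Markers of matrix-producing and neural cells had mostly negative differences beside these groups, nearly all without a call. Over all genes 2.29% were called for level, and 6016 of 11853 had a negative difference. Of 8 measured fibroadipogenic progenitor markers 7 had a negative difference, with a median of -0.13, no calls, and mean marker levels per array of 8.08 to 8.99 in the control and 8.19 to 8.79 under CR. Pdgfra, Ly6a and Lum of that list were below the filter. All 8 measured Schwann cell markers had a negative difference, with a median of -0.12, and mean marker levels per array ran from 8.32 to 9.79 in the control and from 8.37 to 9.33 under CR. Only Ncam1, which muscle stem cells also express, was called, at -0.14 ± 0.04 (adjusted p 0.0447; lost in 30 of 50 single omissions), and Sox10, the defining factor of Schwann cells, differed by -0.07 ± 0.13. With the Schwann cell score of each array as a covariate 201 genes were called, 180 of them among the 272. Named genes that then missed the threshold included matrix, neural and chaperone genes, with differences of -0.59 for Tnc (adjusted p 0.0565), -0.32 for Nid1 (0.0543), -0.19 for Col5a3 (0.0992), -0.44 for L1cam (0.0570), -0.13 for Ncam1 (0.0699), -0.22 for Manf (0.0591) and -0.19 for Cryab (0.122). Ncam1 is itself a member of that score. The loss was not confined to such genes. Apold1, Ldha and Osmr also missed the threshold, as did genes higher under CR. These were Mrgprh (limma adjusted p 0.0756), Ntrk3 (0.0593), Pcp4l1 (0.115), Smad7 (0.0938), Tesc (0.0591) and Vipr2 (0.0594). With the fibroadipogenic score 252 were called, 195 among the 272, and Sparc, Nid1 and Col5a3 kept their calls, while Tnc stood at -0.58 (adjusted p 0.0611) and Bag3 at -0.27 (0.0964). Of 9 measured myofibre markers 7 had a negative difference, with a median of -0.18 and no calls. Their mean marker levels per array ran from 4.95 to 7.63 in the control and from 4.85 to 7.14 under CR. With the myofibre score as a covariate 295 genes were called, 262 of them among the 272. In RNA of whole cell pools, fewer cells of a type and less RNA per cell cannot be told apart.

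Of 7 measured markers of pericytes and smooth muscle 1 was called, Kcnj8, which fell, beside 2.29% of all genes called for level. Kcnj8, a subunit of the ATP-sensitive potassium channel and a pericyte marker, had control values of 6.79, 7.76 and 9.03 and CR values of 5.67, 6.96 and 8.33 at the lowest, median and highest. It differed by -0.77 ± 0.15, or 1.71-fold, and 24 CR arrays were below the control median (adjusted p 0.00121). Rgs5, another pericyte marker, stood at -0.44 ± 0.15 (adjusted p 0.0870). Among genes chosen after their values were seen, Higd1b differed by -0.41 ± 0.11 and Cox4i2 by -0.30 ± 0.08, both called lower. The smooth muscle genes Myh11, a myosin heavy chain, at 0.37 ± 0.13 and Acta2, an actin, at 0.29 ± 0.09 had positive values but did not pass (adjusted p 0.117 and 0.0739). Also chosen after their values were seen, Myocd, the coactivator that drives smooth muscle genes, rose by 0.37 ± 0.10 and Ppp1r12b, a regulatory subunit of myosin phosphatase, by 0.40 ± 0.11. Pdgfrb, Des and Mcam, the other measured members, were not called, and Tagln, Cspg4 and Abcc9 were below the filter. The genes named here therefore do not show that pericyte and smooth muscle genes divide by direction. Over the 7 markers 4 had a positive and 3 a negative difference. Their median was 0.13, while the mean score per array was lower under CR by 0.08, so median and mean differ in sign. With that score as a covariate 332 genes were called, 261 of them among the 272.

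**Figure D2:**
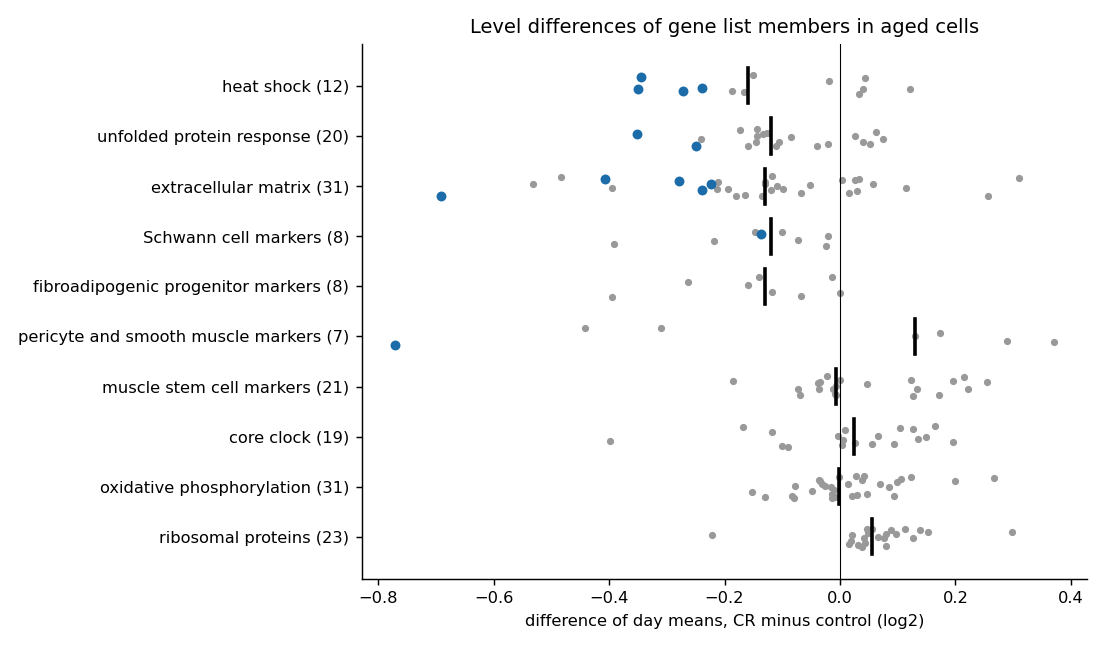
Differences of day means, CR minus control on the log2 scale, for the measured members of 10 gene lists in aged cells (number of members in brackets). Blue points passed limma at 5%, grey points did not, and black bars are list medians; the heat shock, unfolded protein response and matrix lists have called members on the lower side only, and 22 of 23 ribosomal protein genes lie above 0 with none called.

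Growth and nutrient signalling changed in few genes. Over all genes 2.29% were called for level, the share to set beside each list count here. Igf2, the fetal insulin-like growth factor, was the clearest. Its control arrays ran from 9.83 through a median of 10.2 to 10.5 and its CR arrays from 10.2 through 10.5 to 10.8. No control array lay above the CR median, 14 of 26 CR arrays lay above every control array, and the difference was 0.31 ± 0.06, or 1.24-fold (adjusted p 0.000762). It was the only called gene of 19 in the insulin, IGF and FoxO list, whose median was 0.059. Rptor, the scaffold of mTORC1, rose by 0.45 ± 0.11 and was the only called gene of 16 in its list. With the mean of its probe sets the difference was 0.21 and still called (adjusted p 0.0449). The autophagy list had 1 of 26 called, Atg7, the enzyme that activates the Atg8 conjugation system, which differed by -0.19 ± 0.05 (adjusted p 0.0342) but by -0.04 with the mean of its probe sets (adjusted p 0.693), and lost its call in 8 of 50 single omissions.

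In metabolism, Phgdh, which opens serine synthesis, had CR values of 6.16, 6.57 and 7.0 at the lowest, median and highest against 6.41, 6.94 and 7.79 in the control. All but 1 of the CR arrays were below the control median, and the difference was -0.34 ± 0.07 (adjusted p 0.000833). Phgdh was the only call among 14 genes of the amino acid response, beside 2.29% of all genes. In glycolysis 2 of 17 genes were called in opposite directions, beside 2.29% of all genes. Pfkl, the liver type phosphofructokinase, differed by 0.42 ± 0.12 and lactate dehydrogenase Ldha by -0.15 ± 0.04, with adjusted p of 0.0353 and 0.0446. Both rested on the settings: Pfkl stood at 0.18 with the mean of its probe sets (adjusted p 0.153), and Ldha lost its call under 8 of 16 settings. Single omissions ended the call of Pfkl in 14 of 50 cases and that of Ldha in 26. No member was called among 31 oxidative phosphorylation genes, 21 fatty acid oxidation genes, 14 genes of sterol and fatty acid synthesis or 18 antioxidant genes, where medians were -0.0011, 0.033, 0.10 and -0.0068.

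Single members moved in other lists, beside 2.29% of all genes called for level. The DNA damage kinase Atm was higher by 0.39 ± 0.11 (adjusted p 0.0439), with 10 CR arrays above every control array, but stood at 0.16 with the mean of its probe sets (adjusted p 0.229) and lost its call in 28 of 50 single omissions. Smad7, the inhibitor of TGF-beta signalling, was higher by 0.30 ± 0.08 (limma adjusted p 0.0239), with 25 of 26 CR arrays above the control median; its adjusted p was 0.0504 with the replicate block and 0.0938 with the Schwann cell score. The interferon-induced Ifi27 differed by -0.29 ± 0.06 (adjusted p 0.00183), and 23 CR arrays were below the control median. Osmr, the receptor of oncostatin M, differed by -0.41 ± 0.12 (adjusted p 0.0469) and lost its call under 8 of 16 settings and in 30 of 50 single omissions. Of the immune cell markers, the macrophage gene Cd68 rose by 0.38 ± 0.09 and the B cell gene Cd79a by 0.30 ± 0.08 (adjusted p 0.0107 and 0.0239; Cd79a stood at 0.0599 without T20), while macrophage Csf1r stood at -0.04 ± 0.04 and lymphocyte Cd4 at 0.06 ± 0.05. Adgre1, C1qb and Ms4a1, further markers of these cells, were below the filter, and the 2 lists had medians of 0.0065 and 0.061. The lists for Notch, Wnt, cell cycle, myogenic differentiation, proteasome, sirtuin and immediate early genes had no called member.

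Ribosomal protein genes showed a small, one-sided shift without calls in the list. Of 23 measured members 22 had a positive difference, beside 5837 of all 11853 genes. The median was 0.056, and 0 passed limma at 5%, beside 1.21% of all genes called higher. Outside the list, and chosen after their values were seen, 5 others were called higher: Rpl7a by 0.12 ± 0.04, Rpl41 by 0.14 ± 0.04, Rpl21 by 0.16 ± 0.04, Rpl36a by 0.26 ± 0.07 and Rps26 by 0.16 ± 0.05. Their adjusted p lay between 0.0108 and 0.0480. These are bright genes with processed pseudogenes, so a probe set can also bind transcripts of related sequence. The 5 were picked as called genes, and ribosomal protein genes outside the list that were not called were not counted.

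Turning to the daily rhythm, 1276 genes (10.8%) were rhythmic in aged control cells and 1951 (16.5%) in aged CR cells, by limma's F test of the 24 h curve at 5%. Of these 484 were rhythmic in both arms, 792 in the control alone and 1467 under CR alone. A gene that passes in a single arm is not thereby shown to differ, and the test of the difference between the curves called 46 genes (0.388%), with 1639 at an unadjusted p below 0.05. Over all genes the amplitude, the distance from day mean to peak on the log2 scale, had a median of 0.14 in either diet, and 50.5% of genes had the larger amplitude under CR. Of the 484 genes rhythmic in both arms, 307 peaked earlier under CR and 177 later, 298 peaked within 2 h of the control hour, and the median shift was -0.68 h. Their median amplitude was 0.36 in the control and 0.34 under CR.

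Of the 46 genes with a rhythm difference 16 were rhythmic in both diets, 25 under CR alone and 5 in the control alone. The amplitude was larger under CR in 32, and the fitted peak moved by more than 4 h in 41, earlier in 30 and later in 16 of all 46. In genes rhythmic in a single diet, the fitted hour of the other diet is uncertain, and so is the shift. On a 24 h clock, shifts such as -11.9 h for Gm6607 and 11.7 h for Ifna5 have no clear sign. The split into earlier and later is therefore only a description. Medag and Anxa5 were the 2 of these 46 genes also called for level, beside 2.29% of all genes. The count of 46 depends on the settings more than the level count does. It was 11 with the replicate block and 16 with a fit of the aged arrays alone, and the other values stand in the closing section.

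Of 19 measured members of the core clock list 3 were called for a rhythm difference (Arntl, Nr1d2 and Dbp), against 0.388% of all genes. Of the 19, 14 were rhythmic in the control and 12 under CR, beside 10.8% and 16.5% of all genes, and none was called for level. Arntl peaked at 23.5 ± 0.42 h in the control and at 20.1 ± 0.33 h under CR, 3.46 ± 0.54 h earlier, with amplitudes of 1.29 ± 0.14 and 1.55 ± 0.14 (adjusted p 0.000686). At T4 its 4 control arrays lay between 6.94 and 7.59 and its 4 CR arrays between 4.96 and 5.79, with no overlap, a difference of -1.96 ± 0.33 (adjusted p 0.0003). At T16 the order was turned, with means of 6.17 ± 0.94 (SD) in the control and 7.08 ± 0.76 under CR and overlapping arrays. At T20 the means were 7.53 and 7.66.

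Genes of the opposite phase also peaked earlier. Nr1d2 peaked at 9.0 ± 0.35 h in the control and 6.55 ± 0.33 h under CR, 2.45 ± 0.48 h earlier, with amplitudes of 0.80 in both arms (adjusted p 0.0145). Its 4 control arrays at T4 ran from 8.16 to 8.51, all below the lowest CR array at 8.57. Dbp, an output factor that binds D-boxes, peaked 3.38 ± 0.70 h earlier, at 6.92 against 10.3 h (limma adjusted p 0.0194). At T4 it stood at 6.28 to 6.84 in the control and at 7.51 to 7.92 under CR, and at T16 at 6.89 to 7.38 against 6.03 to 6.44, so the arms did not overlap at either hour and were in opposite order. Other members peaked earlier by 1.88 ± 0.61 h (Per3), 1.6 ± 0.75 h (Tef), 1.33 ± 0.63 h (Npas2) and 2.63 ± 1.19 h (Nfil3) without passing the test. The shift of Per2 was -0.97 ± 0.70 h, that of Per1 -1.14 ± 1.22 h and that of Hlf -0.02 ± 0.99 h. With ranks in place of log2 values Arntl (adjusted p 0.186), Nr1d2 (0.547) and Dbp (0.378) lost their calls. Dbp also lost it with the replicate block (0.0625) and Nr1d2 in the fit of the aged arrays alone (0.0535). All 3 kept their calls in each of the 50 single omissions, and Per3 gained one with the mean of its probe sets (0.0273).

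Promoter windows of Arntl and Nr1d2 are printed because the 2 genes peak in opposite phases, both moved earlier, and both hold AGGTCA. These 6 letters are the core of the ROR elements through which Nr1d2 represses its targets. The bases that flank the core were not part of the search. On GRCm38.p6, the RefSeq windows of 300 bases are chr7:113207261-113207560 on the plus strand for Arntl and chr14:18239057-18239356 on the minus strand for Nr1d2. Capitals mark AGGTCA, searched on both strands.
Arntl: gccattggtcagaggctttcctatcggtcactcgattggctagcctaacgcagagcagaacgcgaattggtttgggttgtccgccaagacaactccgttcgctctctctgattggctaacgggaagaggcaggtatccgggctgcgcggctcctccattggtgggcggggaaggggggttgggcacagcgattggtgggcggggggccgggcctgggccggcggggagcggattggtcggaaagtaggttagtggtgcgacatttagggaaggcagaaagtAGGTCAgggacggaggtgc
Nr1d2: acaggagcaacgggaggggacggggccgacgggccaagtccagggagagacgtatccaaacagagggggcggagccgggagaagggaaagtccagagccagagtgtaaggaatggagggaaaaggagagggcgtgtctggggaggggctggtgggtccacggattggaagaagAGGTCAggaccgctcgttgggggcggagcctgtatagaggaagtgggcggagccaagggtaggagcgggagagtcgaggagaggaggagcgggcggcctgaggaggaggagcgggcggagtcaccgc
The core AGGTCA stood in 5 of the 16 clock genes with a window (Arntl, Clock, Nfil3, Nr1d2 and Per1), in 4 of the 34 genes with a rhythm difference and a window, and in 15.8% of all tested genes with a window. The E-box CACGTG, bound by Arntl and Clock, stood in 4 of 16 clock genes, 4 of the 34 and 11.6% of tested genes. A match says only that these letters are in this window.

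**Figure D3:**
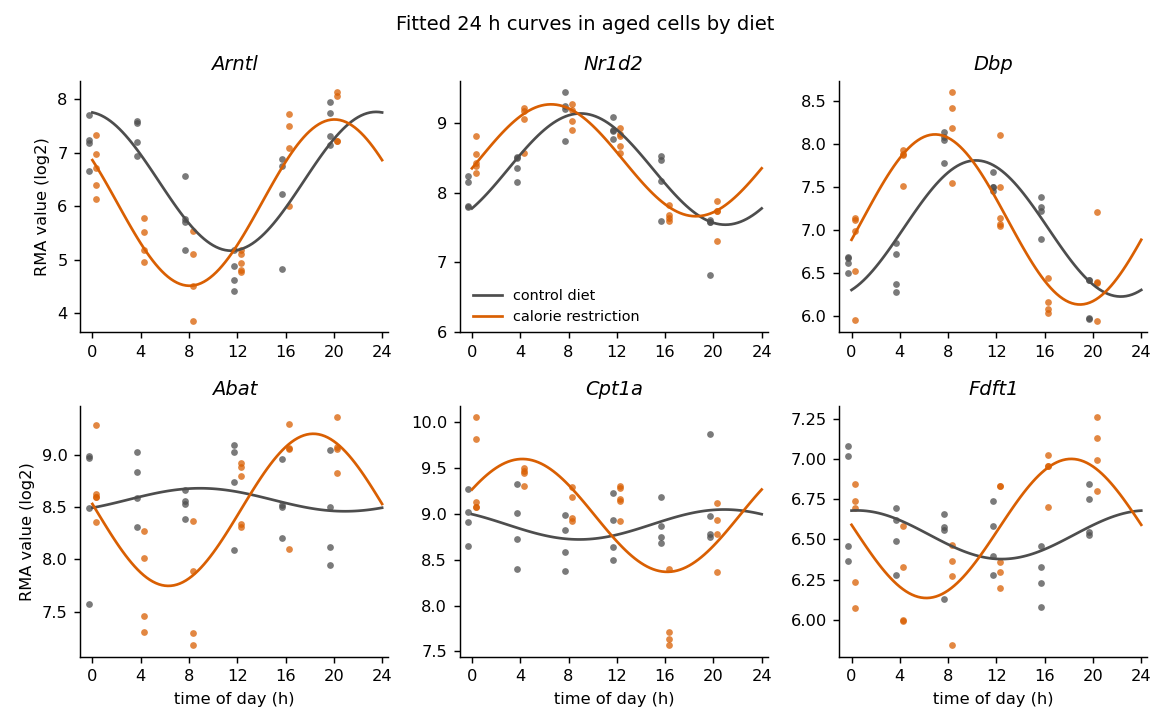
Values of 6 genes with a rhythm difference against time of day in aged cells (points, RMA values on the log2 scale, the 2 diets offset sideways) with the fitted 24 h curves of the control diet (grey) and of CR (orange). The curves of Arntl, Nr1d2 and Dbp are displaced to earlier hours under CR, while Abat, Cpt1a and Fdft1 have amplitudes of 0.11 to 0.16 in the control and 0.43 to 0.73 under CR.

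Sphk2, a kinase that makes the lipid signal sphingosine phosphate, had a wave as large as that of Arntl. Its amplitude was 1.5 ± 0.11 in the control and 1.41 ± 0.11 under CR, and its peak lay at 10.7 ± 0.29 h and 8.14 ± 0.29 h, 2.60 ± 0.41 h earlier under CR (adjusted p 0.000686). At T4 the control arrays were at 6.10 to 6.86 and the CR arrays at 8.10 to 8.33, with no overlap and a difference of 1.65 ± 0.22, and by T8 the means were 8.93 and 9.02. Its rhythm call was lost only with ranks, at an adjusted p of 0.483.

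Several of the 46 genes act in lipid metabolism. Cpt1a, the carnitine transferase that limits entry of fatty acids into mitochondria, had an amplitude of 0.16 ± 0.11 in the control, where it was not rhythmic (adjusted p 0.501), and 0.62 ± 0.10 under CR with a peak at 4.18 ± 0.62 h (adjusted p of the difference 0.0301). Its CR arrays at T16 had values from 7.57 to 8.40, all below the control arrays of that hour at 8.68 to 9.19, whereas at T4 the CR range of 9.30 to 9.50 reached into the control range of 8.40 to 9.33. Eci2, an isomerase of unsaturated fatty acid oxidation named after its values were seen, had a similar form, with amplitudes of 0.17 and 0.54 and a CR peak at 4.81 h. Acaa2, the thiolase that ends the mitochondrial cycle, was rhythmic in both diets and peaked at 13.3 ± 0.71 h in the control and 6.05 ± 0.90 h under CR (adjusted p 0.00582), and lost its call with ranks and with the mean of its probe sets (0.0736). Of 21 fatty acid oxidation genes in the list 2 were called, Acaa2 and Cpt1a, beside 0.388% of all genes.

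Fdft1, Mgll and Dhrs3 peaked late in the cycle under CR. Fdft1 (squalene synthase), the enzyme that commits to sterol synthesis, had amplitudes of 0.15 ± 0.07 and 0.43 ± 0.07, and its CR peak was at 18.2 ± 0.59 h (adjusted p 0.0301). Its CR arrays at T16 and T20, at 6.70 to 7.26, lay above its CR arrays at T4 and T8, at 5.84 to 6.58. It was the 1 call among 14 genes of its list, beside 0.388% of all genes. Of the 14, 8 were rhythmic under CR and 2 in the control, beside 16.5% and 10.8% of all genes. Mgll, which releases fatty acids from monoacylglycerol, had amplitudes of 0.22 and 0.55 and fitted peaks at 2.42 and 21.2 h. It was not rhythmic in the control (limma F test, adjusted p 0.182), so its control hour is uncertain. Dhrs3, a retinaldehyde reductase, had amplitudes of 0.45 and 0.66 and peaks at 2.16 and 19.9 h. Both Mgll and Dhrs3 were named after their values were seen. Cpt1a and Fdft1 lost their calls under 4 of 16 settings each, among them the replicate block (adjusted p 0.0680 and 0.103), and in 5 and 4 of 50 single omissions.

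Outside lipid metabolism, the amplitude of Abat, an enzyme that degrades GABA, was larger under CR. Its control means were between 8.40 and 8.74 at all 6 times, while its CR means fell to 7.68 at T8 and reached 9.08 at T20. The amplitudes were 0.11 ± 0.10 and 0.73 ± 0.10 (limma adjusted p 0.00496), and the control was not rhythmic (adjusted p 0.719), so its fitted control peak of 8.93 ± 3.58 h carries little information. Creb3l1, a membrane-bound transcription factor of the reticulum, peaked at 0.20 ± 0.53 h in the control and 19.5 ± 0.71 h under CR (adjusted p 0.0105), the vesicle fusion protein Sec22b at 7.12 ± 0.86 and 23.9 ± 0.84 h (adjusted p 0.0093), and Hsp90b1 (Grp94), a chaperone of the reticulum, had amplitudes of 0.12 ± 0.04 and 0.25 ± 0.04 with a CR peak at 19.97 h (adjusted p 0.0250). With Pdia3, measured by a dim probe set at a day mean of 4.92, 2 of 20 unfolded protein response genes had a rhythm difference (0.388% of all genes), each lost under 5 settings and in 2 (Hsp90b1) or 10 (Pdia3) of 50 single omissions. Among immune genes, Tnf had fitted peaks at 21.6 h in the control and 11.9 h under CR, at amplitudes of 0.15 and 0.13. The fitted hours of H2-DMa, a loader of MHC class II, were 19.0 and 7.85 h at 0.17 and 0.25. Those of Gpnmb were 21.0 and 6.53 h at 0.22 and 0.36. H2-DMa and Gpnmb were not rhythmic in the control (limma F test, adjusted p 0.0962 and 0.0760), so their control hours are uncertain. Tnf and H2-DMa were also dim, with control means of 5.24 and 4.8. Rps6kb2, a ribosomal S6 kinase, peaked at 20.6 h in the control and 3.55 h under CR with amplitudes near 0.30 (0.31 and 0.29) and kept its call under all 16 settings. The call of Abat was lost without T20, with ranks and with the replicate block (adjusted p 0.0806), and those of Sec22b and Tnf with the replicate block (0.151 for each); H2-DMa lost its call under 4 settings, Gpnmb without T20 and Creb3l1 with ranks.

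**Figure D4:**
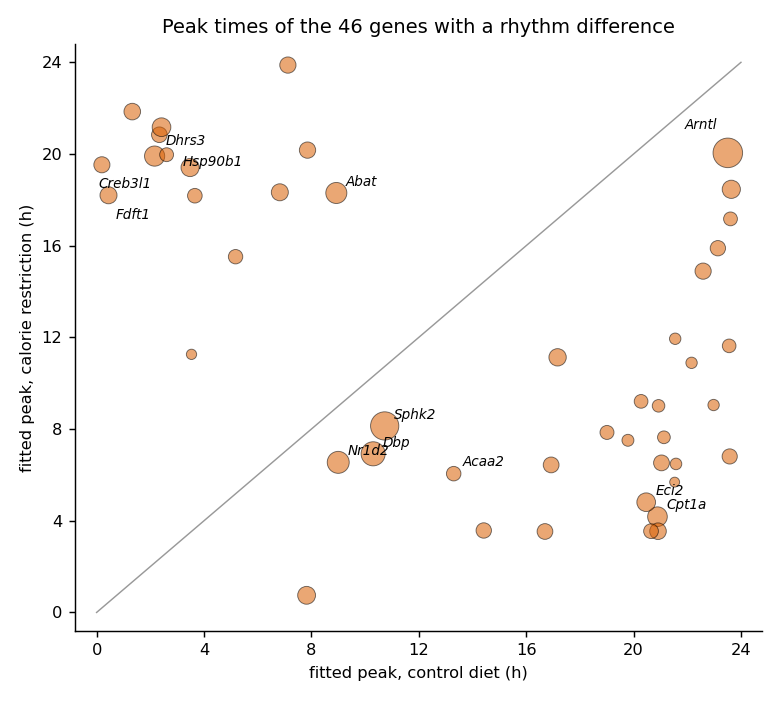
Fitted peak hour under the control diet (horizontal) and under CR (vertical) for the 46 genes with a rhythm difference in aged cells; point area grows with the CR amplitude, and the diagonal marks equal hours on a clock that wraps at 24 h. Arntl, Sphk2, Nr1d2 and Dbp lie a few hours from the diagonal with large amplitudes, and in 41 genes the shift exceeds 4 h; 25 of the 46 were not rhythmic in the control, where a fitted hour is uncertain.

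At single hours, T0 had the highest count of diet differences, except with array weights, where T8 did. At T0 206 genes were called (1.74%), 81 higher (0.683%) and 125 lower (1.05%) under CR, from 4 control and 5 CR arrays. The other hours gave 27 genes at T4 (0.228%), 34 at T8 (0.287%), 13 at T12 (0.11%), 18 at T16 (0.152%) and 20 at T20 (0.169%). Higher and lower genes numbered 14 (0.118%) and 13 (0.11%) at T4, 11 (0.0928%) and 23 (0.194%) at T8, 6 (0.0506%) and 7 (0.0591%) at T12, 6 (0.0506%) and 12 (0.101%) at T16, and 9 (0.0759%) and 11 (0.0928%) at T20. In all 308 genes were called at some hour and 10 at more than 1. The T0 genes had a median absolute difference of 0.65 at T0 and of 0.085 for their mean over the other hours, and 160 of the 206 had the same sign there. These genes were chosen by their T0 difference, so a larger value at T0 follows from the choice. It does not show an effect particular to that hour. The share of all genes with the same sign was not computed. Of the 206, 58 were also called for level and 9 for rhythm. The fit with time as 6 levels called 102 genes for any difference of the diet effect among the 6 hours. Whether the effect at T0 differs from that at the other hours was not tested by itself.

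At T0 the genes of smallest p were Nkx2-9, a homeobox gene, at -0.51 ± 0.09, Tex264, a receptor for autophagy of the reticulum, at -0.84 ± 0.15, and Hspa4, an Hsp110 family chaperone, at -1.01 ± 0.18, each with a limma adjusted p of 0.0009. Chosen by their T0 values, these 3 genes had differences between -0.43 and 0.17 at the other hours, and none was called for level. Cryab, of the heat shock list, differed by -0.84 ± 0.17 at T0 and by -0.18 to -0.10 at the other hours. At T4 the smallest p besides those of Arntl and Sphk2 was that of Medag, an adipogenesis gene, at -0.75 ± 0.13 (adjusted p 0.0005). At T8 the ubiquitin ligase Rnf213 differed by -1.0 ± 0.17 (adjusted p 0.0009) and the gelatinase Mmp2 by -1.11 ± 0.22, while the lipoxygenase Aloxe3 stood at 0.92 ± 0.18. At T12 Cxcl13 differed by -1.80 ± 0.35 and the laminin chain Lamc3 rose by 1.38 ± 0.27. At T16 the microglial and osteoblast gene Tmem119 differed by 1.40 ± 0.28 and Aimp1, a scaffold of aminoacyl-tRNA synthetases, by -0.95 ± 0.17, and at T20 the histone demethylase Kdm2b by 1.11 ± 0.22.

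The T0 count rests on few arrays. It fell to 74 without control replicate 2 of that hour, to 96 without CR replicate 3, to 132 without CR replicate 1 and to 133 without control replicate 1, and rose to 347 without CR replicate 5. With array weights it was 28, and the order of the hours changed: T8 then led with 76, ahead of T12 with 35 and T16 with 31, while T4 had 10 and T20 had 0. The T0 count was 129 with the replicate block and 449 when the leading residual principal component was added as a covariate. Mean pericyte and smooth muscle marker levels at T0 ran from 8.75 to 9.99 in the control and from 8.73 to 9.61 under CR, and Schwann cell marker levels from 8.70 to 9.02 and from 8.37 to 8.87; with each score as a covariate the count was 256 and 192.

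**Figure D5:**
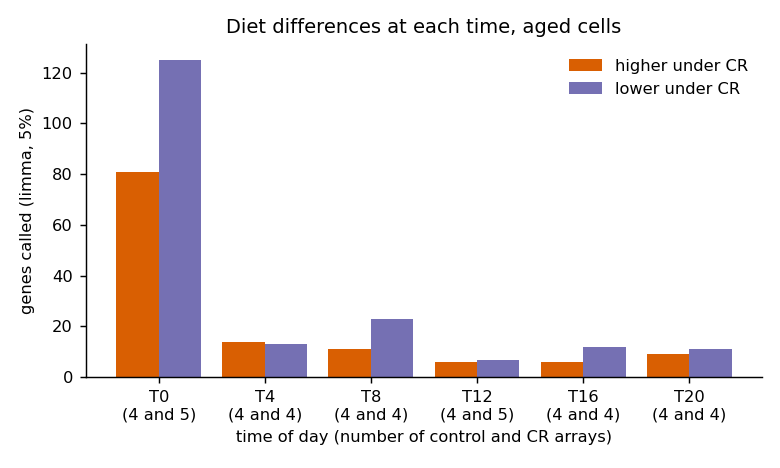
Number of genes called at each time of day between the diets in aged cells (limma at 5% of 11853 genes), higher under CR in orange and lower in purple, with the number of control and CR arrays under each hour. T0 has 81 and 125 genes, and in this fit no other hour has more than 34 in both directions together.

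The same diet comparison in adult mice, which shares no array with the aged one, called 124 genes for level (1.05%), 65 higher (0.548%) and 59 lower (0.498%), and 3 for rhythm (0.0253%). The adult CR arm had 32 arrays and the adult control arm 22, with a single control array at T20; all adult control arrays also carry an age tag of 83 to 97 weeks, against their titles, which were followed. Of the 143 genes higher in aged CR cells 126 had a positive difference in adult cells and 12 were called in the same direction. Of the 129 lower genes 107 were negative and 17 called, and no gene was called in opposite directions. The 29 shared genes are 10.7% of the aged list and 23.4% of the adult list. The median adult difference was 0.13 for the higher and -0.13 for the lower genes, beside 0.31 and -0.32 in the aged cells that chose them.

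No gene passed a test of the difference between the ages: limma called 0 level interactions (0%) with 908 genes at an unadjusted p below 0.05, and 0 rhythm interactions (0%) with 544. With time as 6 levels 1 level interaction was called, as it was without control replicate 2 of T8. Several leading genes had nearly equal values at both ages. Cxcl13 differed by -0.81 ± 0.15 in aged and -0.85 ± 0.15 in adult cells, Thy1 by -0.80 and -0.89 ± 0.15, Dio2 by -0.57 and -0.55 ± 0.11 and Igsf10 by -0.71 and -0.71 ± 0.18, and all 4 were called at both ages. Nid1, Sparc, Col3a1, Col5a3, Osmr, Dnajc3, Anxa5, Rpl21 and Rpl36a were also called lower or higher in the same direction in both. Others had adult values near 0 without a called interaction. Ager differed by 0.52 ± 0.10 in aged and -0.11 ± 0.10 in adult cells (interaction adjusted p 0.160), Atcay by 0.58 and -0.01 ± 0.12 (0.277), Mms19 by 0.51 and 0.05 ± 0.10 (0.303), Cd68 by 0.38 and 0.02 ± 0.09 (0.447) and Tnc by -0.69 and -0.09 ± 0.18 (0.557).

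In adult cells Arntl, Dbp and Nr1d2 had fitted shifts of the same sign, while that of Per2 was 0.72 h later. Arntl peaked at 23.3 h in adult control and 20.1 h in adult CR cells, a shift of -3.13 h beside -3.46 h in aged cells, without passing the test at that age (adjusted p 0.0832). Sphk2 shifted by -2.13 h (adjusted p 0.00015) and Dbp by -2.37 h (adjusted p 0.0401), and with Dhrs3 (adjusted p 0.00144) these were the 3 adult rhythm calls. Cpt1a had adult amplitudes of 0.33 and 0.57 with a CR peak at 3.96 h, and Abat of 0.19 and 0.77 with a CR peak at 17.7 h, neither called in adult cells (adjusted p 0.128 and 0.345). Nr1d2 shifted by -1.36 h in adult cells and by -2.45 h in aged cells.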

How the data were processed

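The submitters' processing notes name RMA, without a version, as the source of the values the authors deposited. A log2 scale was inferred from the deposited range, 1.19 to 12.8. Steps before RMA, collection days and scan batches are not given in the sources used here. Of 45141 probe sets 28898 had 1 gene symbol, 551 several and 15692 none listed; 28689 matched RefSeq (GRCm38.p6) by Entrez number. Each gene was represented by its brightest probe set, after removal of those whose mean was below log2 4.50 (percentile 40), which left 11853 genes. A single limma model (version 3.58.1, under R 4.3.3) covered every array of the series, adult and aged, with a day mean and a 24 h cosine and sine per arm, the adult arms serving the estimate of spread. Differences at single hours came from arm and time means. Adjusted p values are Benjamini-Hochberg over all genes, with a 5% threshold. Arrays have no read depth; their number limits precision.

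The compared arrays, gene lists and naming rules were chosen with earlier results of these data known. The rule named the 15 called genes of largest level difference each way that held their sign at 5 or more times, the 15 of smallest p for rhythm, clock genes, up to 4 called members per list, the 2 brightest markers per cell type, and the 3 called genes of smallest p per hour; some were left to the counts, and genes outside the rule are marked as chosen after their values were seen. Some items are not reported here. The scripts were tested on simulated data with known differences before use. Alternatives were other filters, probe set means, a fit of the aged arrays alone, time as 6 levels, omission of T20 or of each array, array weights, quantile normalization, covariates, a replicate block, ranks and an intensity trend.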

Additional observations from a re-analysis of the deposited data

How the results depend on the processing

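Level differences numbered 272, and 194 to 344 in the alternatives that stayed within 1.5 times; without T20 there were 145 and with the replicate block 160, of which 129 and 138 were among the 272. The 46 rhythm differences became 16 in a fit of the aged arrays alone, 102 with time as 6 levels, 22 without T20, 106 with the first residual principal component, 11 with the replicate block and 13 with ranks. Rhythmic genes in the control fell from 1276 to 836 without T20. Genes called at some hour, 308, became 194 in the separate fit, 174 with array weights, 552 with the residual component and 161 with the replicate block, and at T0 206 became 28, 449 and 129 under the last 3. With array weights the counts at T4 to T20 were 10, 76, 35, 31 and 0, beside 27, 34, 13, 18 and 20. The level interaction with age rose from 0 to 1 with time as 6 levels. Leaving out each aged array in turn gave 201 to 311 level differences, 33 to 63 rhythm differences, 1032 to 1318 rhythmic genes in the control and 1747 to 2000 under CR, 0 to 1 level interactions, 0 rhythm interactions, 186 to 446 genes at some hour and 74 to 347 at T0. The lowest and highest at the other hours were 4 and 55 at T4, 5 and 56 at T8, 0 and 14 at T12, 2 and 20 at T16 and 0 and 44 at T20; 0 was reached without CR replicate 3 or control replicates 1 or 2 at T12, and without CR replicates 1, 3 or 4 or control replicates 1 or 4 at T20. The any-hour count moved over 1.5 times without control replicate 2 (186) or CR replicate 3 (202) of T0. Replicate numbers are shared between diets, but of 24 same-numbered pairs 6 had deviations correlated over 0.1 (median 0.021, beside 0.0072 in 80 pairs of different numbers), so the numbers were not taken as pairs. The cause of these changes was not tested. Of 827 values of 52 named level differences 718 kept their call, 109 lost it and 0 reversed; of 571 for 36 rhythm results 521 kept their side, 49 lost and 1 gained a call. The higher and lower calls were 143 and 129, 127 and 158 with added quantile normalization, 158 and 94 with the fibroadipogenic score, and 156 and 116 with array weights. Single-hour results rest on 4 or 5 arrays per diet.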
